A study of Mus musculus with 16 samples.

Results

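Knockout subcutaneous and wild-type visceral macrophage pools were compared: 8 of the 16 arrays of the series, 4 labelled as KO-LysM SAT and 4 labelled as WT VAT. The arrays were taken by these labels, and the comparison was chosen with earlier results of these data known. SAT stands for subcutaneous fat and VAT for visceral fat. Each array carried RNA of adipose tissue macrophages pooled from mice aged 19 to 21 weeks, hybridised to an Affymetrix mouse array with perfect-match probes. The design text names the mice as Sucnr1flox/flox, called wild type (WT), and LysM-Sucnr1-/-, the knockout (KO), in which Cre under the lysozyme M promoter deletes Sucnr1 in myeloid cells; both genotypes carry the floxed alleles. The letters NCD in the labels are not explained there, and the labels give neither the animals per pool nor their sex. Whether pools came from separate animals is not stated, so p-values measure the spread between these arrays. Each group has 2 pools on day 1 (pools 1 and 2) and 2 on day 2 (pools 3 and 4).

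The arrays differ in genotype and in labelled depot at once, and these cannot be told apart in this comparison. The difference would be that of the genotypes within 1 depot only if the depot labels of 1 genotype had been exchanged, which was not tested; the labels were used as given.

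SUCNR1 is the cell surface receptor for succinate, an intermediate of the citric acid cycle that cells release under metabolic stress, and the title of the series ties it to alternative activation of macrophages. Alternatively activated macrophages respond to interleukin 4, express lectins, arginase and resistin-like molecules, and are linked to tissue repair. Fat macrophages differ between depots, and a bead-selected fraction can also hold RNA of other cells. Visceral fat in male mice includes the pads beside the epididymis, and the seminal vesicles lie nearby in the abdominal cavity. Those glands secrete the bulk of seminal plasma protein under androgen control.

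Deposited log2 values ran from 2.91 to 13.19 over all arrays. The 4 KO SAT arrays resembled each other closely (r from 0.989 to 0.996 across probe sets, which are not independent). The WT VAT arrays correlated at 0.942 to 0.990, and their days stood apart: the interquartile range of log2 values was 2.01 and 2.15 on WT VAT pools 1 and 2 and 2.50 and 2.54 on pools 3 and 4. In KO SAT pools 1 to 4 it was 2.45, 2.37, 2.61 and 2.63. The group means, 2.52 ± 0.12 in KO SAT and 2.30 ± 0.26 in WT VAT (SD, n = 4 each), differed by 0.22, with p = 0.229 in a two-sided exact permutation test whose smallest possible p is 0.0286. WT VAT pools 3 and 4 correlated with KO SAT at 0.984 to 0.989 and pools 1 and 2 at 0.925 to 0.980. Counts of calls are therefore also given without WT VAT pools 1 and 2.

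Of 17097 genes, 1178 (6.89%) passed at an adjusted p under 0.05 in limma's fit with day as a term. Higher values in KO SAT were found for 806 genes (4.71%) and lower values for 372 (2.18%). At least 2-fold differences were found for 70 of these genes (0.409%), 55 higher (0.322%) and 15 lower (0.0877%). All 4 KO SAT arrays lay above all 4 WT VAT arrays for 517 genes (3.02%) and below them for 749 (4.38%). The calls leaned towards bright genes: of the 5699 genes of highest mean level 9.28% rose and 1.05% fell, and of the 5699 of lowest mean level 0.579% rose and 1.63% fell. The median change of the brightest 5699 genes was 0.22, with 0.43 on day 1 and 0.02 on day 2. Counts and medians of the lists below stand beside these shares: 6.89% of all genes passed, and a list of bright genes compares with the brightest group. Without WT VAT pools 1 and 2 the count was 139, with array spread as a term it was 656, and with the pool number as a block it was 645. With the spread term 163 genes were higher and 493 lower, and 165 of the calls were shared with the fit without it. The part of array spread in these calls was not tested further.

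**Figure D1:**
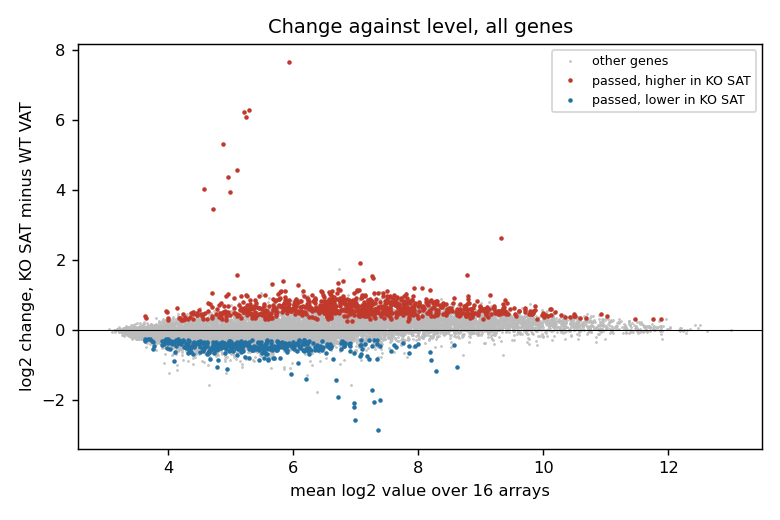
Log2 change of each gene, KO SAT minus WT VAT (vertical axis), against its mean log2 value over 16 arrays (horizontal axis); red points are the 806 genes that rose, blue points the 372 that fell. A small group of genes far above the rest reaches a change of 7.65, and the other red points gather at higher mean values.

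No single array left the count in place. It was 277, 185, 177 and 245 without KO SAT pool 1, 2, 3 or 4, and 291, 442, 2313 and 3388 without WT VAT pool 1, 2, 3 or 4. Taken by day in 1 fit, 5406 genes (31.6%) passed on day 1 and 36 (0.211%) on day 2, with 24 on both in the same direction. All 1178 genes had the same sign on both days, and their median absolute change was 0.68 on day 1 and 0.41 on day 2. The change tested is the mean of the changes on both days. A shared sign therefore largely follows from the call and is not a separate result. A single gene, Krtap19-2 (0.00585%), passed the test of the difference between the days, against 3312 at an unadjusted p under 0.05.

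**Figure D2:**
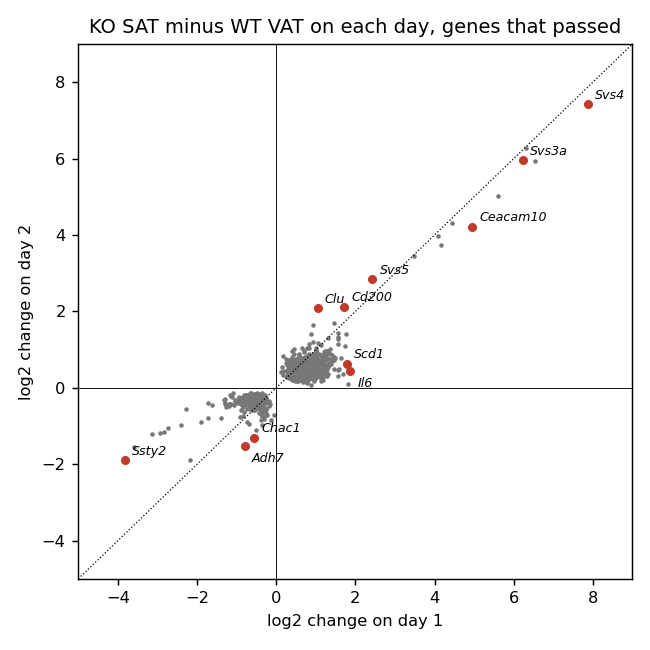
Log2 change on day 1 (horizontal) and day 2 (vertical) for the 1178 genes that passed; red points are named and the dotted line marks equal change. The seminal vesicle genes lie close to the line at the upper right, Il6 and Scd1 lie further from zero on day 1, and Adh7 and Chac1 lie further from zero on day 2.

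The genes that rose most were those of seminal vesicle secretion, and 6 of them are neighbours on chromosome 2. Their sequences upstream of the start are shown because these neighbours rose together. Each line gives the 150 bases before the transcription start from RefSeq (GRCm38.p6), on the strand of the gene. Capitals mark TATAAA, the core of the TATA box that positions transcription, and AGAACA, a half-site known to bind the androgen receptor; both motifs were chosen after the data were seen. The positions are chr2:164238342-164238491 (minus strand) for Svs2, chr2:164256644-164256793 (minus) for Svs3b, chr2:164278308-164278457 (minus) for Svs4, chr2:164289117-164289266 (plus) for Svs3a, chr2:164316601-164316750 (plus) for Svs6 and chr2:164332615-164332764 (plus) for Svs5.
Svs2: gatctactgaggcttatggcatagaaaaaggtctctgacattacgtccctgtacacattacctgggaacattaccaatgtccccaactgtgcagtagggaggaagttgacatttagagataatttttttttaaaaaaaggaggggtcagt
Svs3b: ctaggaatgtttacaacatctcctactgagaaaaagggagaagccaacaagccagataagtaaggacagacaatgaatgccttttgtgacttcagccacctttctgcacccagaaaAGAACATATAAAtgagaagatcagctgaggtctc
Svs4: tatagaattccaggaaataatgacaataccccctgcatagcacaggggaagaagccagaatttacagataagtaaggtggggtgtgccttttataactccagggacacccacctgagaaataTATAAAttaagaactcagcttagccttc
Svs3a: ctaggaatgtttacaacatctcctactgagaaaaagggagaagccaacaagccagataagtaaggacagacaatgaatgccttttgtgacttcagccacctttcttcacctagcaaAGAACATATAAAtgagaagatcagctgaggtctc
Svs6: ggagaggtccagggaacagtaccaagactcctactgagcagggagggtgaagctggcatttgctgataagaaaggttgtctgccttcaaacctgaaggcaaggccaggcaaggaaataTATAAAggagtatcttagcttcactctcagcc
Svs5: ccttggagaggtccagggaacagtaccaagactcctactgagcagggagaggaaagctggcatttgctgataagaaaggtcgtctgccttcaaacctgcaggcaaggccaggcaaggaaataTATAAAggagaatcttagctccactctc

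TATAAA stood in the 150 bases of Svs3a, Svs3b, Svs4, Svs5 and Svs6, and AGAACA directly before it in Svs3a and Svs3b, with no overlap. The windows of Svs3a and Svs3b were identical at 147 of 150 bases (98%), so probe sets of these near-identical genes may not separate them. Over the 250 bases before the start, TATAAA on the strand of the gene was found in 6 of 9 genes (66.7%), the 8 listed seminal vesicle genes that rose and had a window and Pate14, which is not in the list, against 6.93% of 13605 genes. AGAACA on either strand was found in 6 of these 9 (66.7%), against 14.7% of all. These matches describe the sequences, and neighbours of 1 family are not independent.

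Svs4, which encodes a major protein of seminal fluid, had log2 values of 11.59, 11.78, 11.36 and 11.04 on KO SAT pools 1 to 4. On WT VAT pools 1 to 4 it had 3.88, 3.76, 3.76 and 3.78. The groups were far apart on both days, with a change of 7.65 ± 0.52 (SE; adjusted p = 5.74e-07, limma). The WT VAT values lay below 4.54, the level taken as background because 95% of 39 olfactory receptor genes lay below it, so the rise is at least 120-fold. KO VAT averaged 3.76, and WT SAT pool 2 stood at 7.30 while the other WT SAT pools lay near background. WT SAT pool 2 also lay above background, and above the other WT SAT pools, for Svs6 (5.09), Svs2 (4.65) and Pate4 (4.58).

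Svs3a had 10.15, 9.71, 9.76 and 9.50 on KO SAT pools 1 to 4 and 3.65, 3.73, 3.77 and 3.57 on WT VAT pools 1 to 4. No array of either group came near those of the other, and the rise was at least 37.8-fold. Svs6 rose by 6.29 ± 0.24, Svs2, a protein of the copulatory plug, by 6.24 ± 0.19, and Svs3b by 4.03 ± 0.10. Outside the chromosome 2 neighbours, Ceacam10 rose by 4.58 ± 0.18, Sva (seminal vesicle antigen) by 4.38 ± 0.13, Pate4 by 3.95 ± 0.14 and Spink1, a secreted trypsin inhibitor, by 3.46 ± 0.09. Pate14, of the same family as Pate4 but not in the list, rose by 5.32 ± 0.17.

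Svs5 had 11.76, 11.72, 11.19 and 10.78 on KO SAT pools 1 to 4 and 9.55, 9.07, 8.15 and 8.14 on WT VAT pools 1 to 4. The groups did not overlap, and the change was 2.63 ± 0.20 with WT VAT well above background. This value belongs to 1 of 5 probe sets: on the other four, WT VAT averaged 3.86 to 4.41 and the change was between 4.21 and 7.19.

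Of 16 measured genes in the seminal vesicle and male tract list, 10 rose and 0 fell, and the median change was 3.71, against -0.03 for all genes. The same count of 10 was found on adding the spread term and without WT VAT pools 1 and 2, and each of these 10 genes also passed on day 2 in the fit by day. The mean log2 value of the list on an array ranged from 7.23 to 7.64 among KO SAT arrays and from 4.18 to 4.62 among WT VAT arrays; the KO VAT range was 4.06 to 4.2 and the WT SAT range 4.16 to 4.84. Genes of the epididymis and prostate in the list did not pass. Lcn5, an epididymal lipocalin, changed by 1.05 ± 0.58 (adjusted p = 0.213, limma). Both groups held it above background, with means of 7.18 in KO SAT and 6.13 in WT VAT. In KO VAT (4.16) and WT SAT (4.43) Lcn5 lay below background. Pbsn (probasin, of the prostate) changed by -0.05 ± 0.07 and Adam7 by -0.16 ± 0.12. The genes that flank the 6 neighbours were not raised: Wfdc15b fell by 0.58 ± 0.10 (adjusted p = 0.0115) and Slpi differed by 0.19 ± 0.16 (adjusted p = 0.403). In bulk RNA, more cells of a type and more RNA per cell cannot be told apart.

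**Figure D3:**
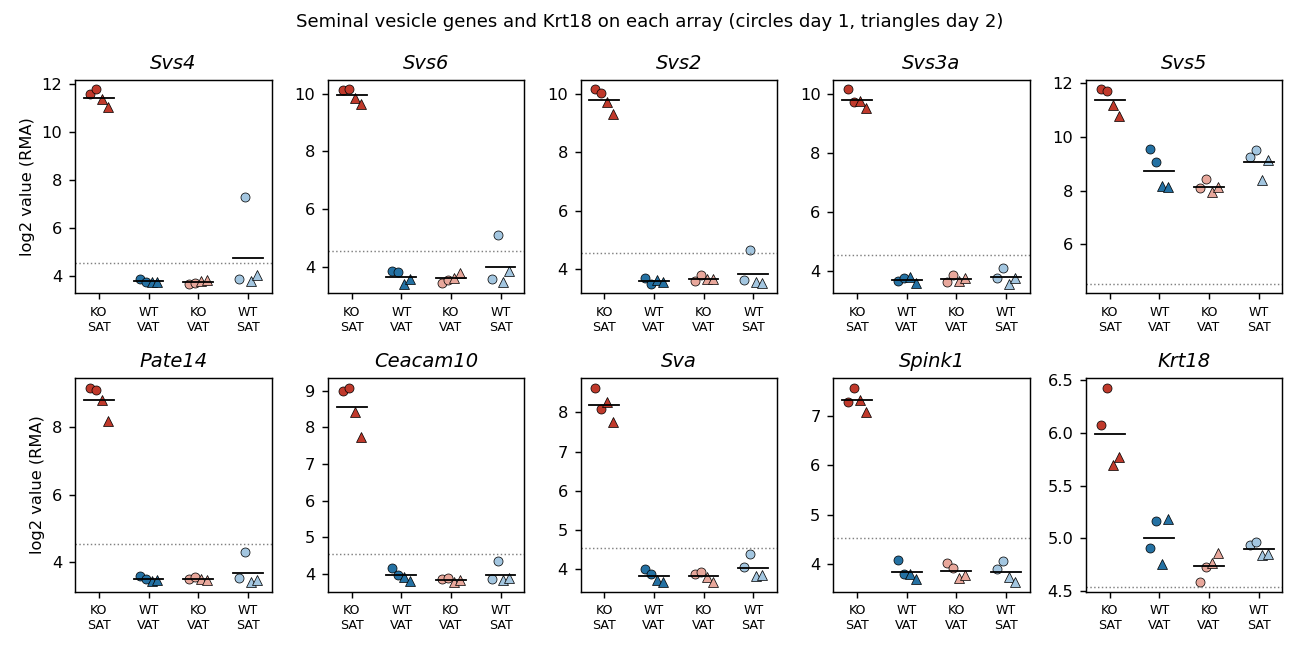
Log2 values of 9 seminal vesicle genes and Krt18 on each of the 16 arrays in 4 groups; bars are group means, circles day 1, triangles day 2, and the dotted line the background level of 4.54. The 4 KO SAT arrays lie above all WT VAT arrays in every panel, and WT SAT pool 2 is raised for Svs4 and, by less, for Svs6 and Svs2.

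A few genes of simple epithelia were higher in the same arrays by smaller amounts, while the epithelial list as a whole was not. Krt18, a keratin of simple epithelia, had 6.07, 6.42, 5.69 and 5.77 on KO SAT pools 1 to 4 and 4.91, 5.16, 4.76 and 5.18 on WT VAT pools 1 to 4. All KO SAT arrays lay above all WT VAT arrays, and Krt18 rose by 0.99 ± 0.13 (adjusted p = 0.0016). Its partner Krt8 rose by 0.90 ± 0.23 and Cldn4, a claudin of tight junctions named for its large rise, by 1.58 ± 0.28; Krt8 did not pass with the spread term. Clu, a secreted chaperone abundant in many epithelia and also named for its large rise, had 8.37, 8.62, 8.67 and 9.09 against 7.17, 7.72, 6.39 and 7.21, and rose by 1.56 ± 0.26 with no overlap. Cd24a, a surface glycoprotein of epithelia and immature blood cells outside the naming rule, rose by 1.45 ± 0.26. Of 15 genes of mammary and skin epithelium 2 rose, Krt8 and Krt18, but only 6 had a positive change and the median was -0.07; Krt5, a keratin of basal cells, differed by -0.51 ± 0.25 (adjusted p = 0.166). Of 18 mesothelial genes the same 2 rose, 6 had a positive change and the median was -0.04. Other epithelial genes of these lists did not pass in limma. Epcam differed by 0.13 ± 0.19 (adjusted p = 0.611), Cdh1 by 0.15 ± 0.13 (adjusted p = 0.415) and Krt19 by -0.06 ± 0.12 (adjusted p = 0.748). Dsp came nearer the threshold, with 1.12 ± 0.35 (adjusted p = 0.0594). With the spread term, and without WT VAT pools 1 and 2, 1 gene of each list rose. The mean of the epithelial list was 4.89 to 5.26 on KO SAT arrays and 4.79 to 5.14 on WT VAT arrays; its part in these rises was not tested.

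Endothelial genes leaned the same way, with few calls. Of 22 genes, 2 rose and 0 fell, with a median of 0.41 (3 rose with the spread term and 2 without WT VAT pools 1 and 2), and the list mean was 6.25 to 6.50 in KO SAT and 5.60 to 6.22 in WT VAT. Ednrb, the endothelin B receptor, had 7.46, 7.62, 8.22 and 7.63 on KO SAT pools 1 to 4 and 5.25, 6.72, 5.77 and 7.20 on WT VAT pools 1 to 4. WT VAT varied widely, and the rise was 1.5 ± 0.29 (adjusted p = 0.015); leaving out KO SAT pool 2 or pool 3 lost the call. Tek, the angiopoietin receptor, rose by 1.03 ± 0.21. Cdh5, the cadherin of endothelial junctions, stood at 9.05 against 7.98 and missed the threshold (1.07 ± 0.48, adjusted p = 0.139). Cd200, a glycoprotein of endothelial and other cells that restrains macrophages, had 7.33, 8.34, 8.80 and 8.47 against 5.27, 6.97, 5.69 and 7.32. It rose by 1.92 ± 0.40, and 4 of the 8 fits with 1 array left out lost it.

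Macrophage identity showed little separation. Of 19 core macrophage genes 18 lay above background in both groups, as the cell type label implies, and 1 passed. Spi1, the transcription factor PU.1 of myeloid cells, rose by 0.47 ± 0.13 (adjusted p = 0.0398) and did not pass with the spread term or without WT VAT pools 1 and 2. The list median was 0.18, with 0.35 on day 1 and 0.14 on day 2. Cd68, a lysosomal macrophage marker, stood at 11.39 ± 0.13 and 11.14 ± 0.26 (SD, n = 4).

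The targeted gene could not be read. Sucnr1 had 3.65, 3.58, 3.53 and 3.44 on KO SAT pools 1 to 4 and 3.61, 3.61, 3.51 and 3.35 on WT VAT pools 1 to 4. All 8 values lay below the background level, and the difference was 0.03 ± 0.07 (95% interval -0.11 to 0.17), so the array does not check the genotype labels. Lyz2, whose promoter drives the Cre, had 10.01, 10.56, 10.75 and 10.59 against 10.52, 10.71, 10.39 and 10.68. The groups overlapped, and the difference was -0.09 ± 0.14 (adjusted p = 0.642), with the sign turned on day 2 (0.14).

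Alternative activation genes rose in part. Of 28 measured, 6 rose and 0 fell, with a median of 0.26 (0.24 on day 1 and 0.14 on day 2); with the spread term 3 rose and 1 fell, and without WT VAT pools 1 and 2 none passed. Clec7a, the beta-glucan receptor dectin-1, had 7.0, 7.22, 7.53 and 7.56 on KO SAT pools 1 to 4 and 5.38, 5.73, 6.31 and 6.50 on WT VAT pools 1 to 4. The groups did not overlap, and the rise was 1.35 ± 0.21 (adjusted p = 0.00468), which passed with each array left out in turn. Retnla, the resistin-like secreted marker of interleukin 4 action, had 7.86, 8.40, 8.58 and 8.28 against 7.22, 7.44, 7.49 and 7.90. KO SAT pool 1 lay just below WT VAT pool 4, and the rise was 0.77 ± 0.14 (adjusted p = 0.0118).

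Pparg, the lipid-sensing nuclear receptor of this program, rose by 0.33 ± 0.08, and Ccl24, a chemokine for eosinophils, by 1.29 ± 0.35; neither passed with the spread term. Arginase 1 and the mannose receptor, outside the naming rule, did not pass: Arg1 differed by -0.10 ± 0.22 (adjusted p = 0.754) and Mrc1 by 0.62 ± 0.22 (adjusted p = 0.0827). Among 25 resident macrophage genes 4 rose and 0 fell, namely Folr2 (0.51 ± 0.13), Igf1 (0.64 ± 0.15), Ccl24 and Ccl6, with a median of 0.21. None of these 4 passed with the spread term or without WT VAT pools 1 and 2. Lpl, the lipase that frees fatty acids, was the only one of 23 lipid-associated macrophage genes to rise (0.58 ± 0.15), and it did not pass with the spread term or without WT VAT pools 1 and 2.

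Chemokines for myeloid cells rose in 4 of 19 genes, with 0 lower and a median of 0.24; with the spread term 1 rose and 1 fell, and without WT VAT pools 1 and 2, 2 rose. Ccl3, which draws monocytes, had 7.11, 7.60, 7.70 and 7.85 on KO SAT pools 1 to 4 and 6.34, 6.82, 6.47 and 6.98 on WT VAT pools 1 to 4. No array overlapped, and the rise of 0.91 ± 0.16 (adjusted p = 0.00991) also passed with the spread term and without WT VAT pools 1 and 2. Cxcl2, a neutrophil chemokine, rose by 0.52 ± 0.10. Of 9 T cell chemokine genes 1 fell: Ccl19, which guides T cells and dendritic cells, by 0.78 ± 0.17, a call lost with the spread term and without WT VAT pools 1 and 2. The T cell marker list held 0 calls of 15 genes and averaged 4.79 to 5.00 in KO SAT and 4.98 to 5.24 in WT VAT.

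Inflammatory and stress-response lists had larger median changes on day 1 than on day 2, a difference not tested for lists. The median of the brightest 5699 genes was likewise larger on day 1 (0.43) than on day 2 (0.02). Of 26 NF-kB cytokine and feedback genes 5 rose and 0 fell, with a median of 0.31 (0.42 on day 1 and 0.14 on day 2); 1 rose and 1 fell with the spread term, and also without WT VAT pools 1 and 2. Il6, a cytokine of acute inflammation, had 8.38, 7.98, 8.42 and 8.68 on KO SAT pools 1 to 4 and 5.95, 6.68, 8.26 and 7.94 on WT VAT pools 1 to 4. The low values were those of WT VAT pools 1 and 2: the rise of 1.16 ± 0.30 was 1.86 on day 1 and 0.45 on day 2. Nfkbiz, an inducible regulator of NF-kB target genes, had 8.31, 8.02, 8.38 and 8.40 against 6.02, 7.14, 7.81 and 8.00. It rose by 1.03 ± 0.26, with 1.58 on day 1 and 0.48 on day 2. Neither passed with the spread term.

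Immediate early genes, which digestion of tissue can induce, rose in 6 of 24 with 0 lower and a median of 0.34. With the spread term 1 rose and 1 fell (median 0.04), and without WT VAT pools 1 and 2 none passed (median 0.09). Jun had 7.57, 7.44, 7.88 and 7.82 on KO SAT pools 1 to 4 and 6.14, 6.43, 6.95 and 7.31 on WT VAT pools 1 to 4. The groups did not overlap, and Jun rose by 0.97 ± 0.17 (adjusted p = 0.00981), 1.22 on day 1 and 0.72 on day 2; it passed with the spread term but not without WT VAT pools 1 and 2. Dusp1, a phosphatase that ends MAP kinase signals, rose by 0.69 ± 0.14, and leaving out KO SAT pool 1, 2 or 3 lost the call, as did both of those fits. Among 18 interferon gamma genes 5 rose and 1 fell, with a median of 0.43 (0.55 on day 1 and 0.18 on day 2). With the spread term 0 rose and 1 fell (median 0.06), and without WT VAT pools 1 and 2 none passed. Gbp2, a guanylate-binding protein of host defence, rose by 0.79 ± 0.16, and Ido1, a tryptophan-degrading enzyme, fell by 0.38 ± 0.10. The Ido1 means, 4.12 in KO SAT and 4.49 in WT VAT, both lay under background. Neither gene passed in those fits. Of 21 interferon response genes 2 rose, Ifit1 and Ifih1; with the spread term 0 rose and 1 fell, and without WT VAT pools 1 and 2 none passed. The shares of upstream windows that held the interferon element core GAAANNGAA, on both strands, were 8.59% of the genes that rose, 9.25% of those that fell and 7.51% of all. For the NF-kB site GGGANTTCC the shares were 1.99%, 1.03% and 1.98%, and for the sterol element TCACNCCAC 1.23%, 3.42% and 1.3%.

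The unfolded protein response list split, with 3 of 22 genes higher and 3 lower, but the rises were lost in both other fits: 0 rose and 4 fell with the spread term, and 0 rose and 3 fell without WT VAT pools 1 and 2. Xbp1, the factor that expands secretory capacity, rose by 0.78 ± 0.20, with 1.25 on day 1 and 0.31 on day 2; Dnajb9 and Ern1 rose too. Trib3, a pseudokinase induced under amino acid shortage, had 6.47, 6.57, 6.73 and 6.47 on KO SAT pools 1 to 4 and 6.87, 7.19, 7.72 and 7.69 on WT VAT pools 1 to 4. All KO SAT arrays were lower, and Trib3 fell by 0.81 ± 0.15 (adjusted p = 0.0125). Chac1, a glutathione-degrading enzyme, had 5.43, 5.40, 5.63 and 5.91 against 5.80, 6.16, 6.95 and 7.20. It fell by 0.94 ± 0.21, and the highest KO SAT array lay above the lowest WT VAT array. Both falls were larger on day 2 (1.11 and 1.30) than on day 1 (0.51 and 0.57), though the test of the day difference did not pass for either. Both passed with the spread term and without WT VAT pools 1 and 2. Chac1 did not pass when any 1 KO SAT array was left out.

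Enzymes of serine, phosphoenolpyruvate and asparagine synthesis, chosen after their values were seen, fell in part. Phgdh, the first enzyme of serine synthesis, had 7.29, 7.29, 6.70 and 6.96 on KO SAT pools 1 to 4 and 8.06, 7.90, 7.63 and 7.93 on WT VAT pools 1 to 4. The groups did not overlap, and Phgdh fell by 0.82 ± 0.11 (adjusted p = 0.0016). Pck2, the mitochondrial enzyme that makes phosphoenolpyruvate, fell by 0.56 ± 0.13 (adjusted p = 0.025). Asns, asparagine synthetase, differed by -0.47 ± 0.26 (adjusted p = 0.222) and did not pass. In KO VAT minus WT SAT, Phgdh was also lower, by 0.37 (adjusted p = 0.0182, limma). Pck2 differed there by 0.06 (adjusted p = 0.734) and Asns was higher by 1.12 (adjusted p = 0.00596). The amino acid response element TGATGNAA, chosen after the data were seen and searched on both strands, lay upstream of 5.82% of the genes that fell and 2.86% of all; TATAAA (9.93% and 6.93%), AGAACA (18.5% and 14.7%) and the sterol element also had higher shares among the genes that fell.

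The calls among lipid and citric acid cycle genes were lost in both other fits. Of 17 fatty acid synthesis genes 2 rose: Scd1, the desaturase that makes oleate, by 1.21 ± 0.28 (1.78 on day 1 and 0.63 on day 2) and Elovl5 by 0.43 ± 0.12. Of 16 fatty acid oxidation genes 2 rose and 1 fell: Acadm, the medium-chain acyl-CoA dehydrogenase, rose by 0.75 ± 0.15, the carnitine carrier Slc25a20 rose by 0.54 ± 0.15, and Cpt2, a carnitine palmitoyltransferase, fell by 0.41 ± 0.11. With the spread term, and without WT VAT pools 1 and 2, none of these 5 genes passed. Mdh1, the cytosolic malate dehydrogenase, rose by 0.60 ± 0.15 as the only one of 22 succinate and citric acid cycle genes, and did not pass in those fits either; with the spread term 1 other gene of this list and 1 of the synthesis list fell. Of 22 stromal progenitor genes Thy1 fell, by 0.44 ± 0.12; 5 fell with the spread term and 2 without WT VAT pools 1 and 2. Col1a1, a collagen chain, had 9.62, 9.49, 9.39 and 9.44 on KO SAT pools 1 to 4 and 9.52, 9.44, 10.30 and 10.41 on WT VAT pools 1 to 4. Its WT VAT values rose from day 1 to day 2, so Col1a1 differed by 0.08 on day 1 and fell by 0.94 on day 2, while over both days the change of -0.43 ± 0.19 did not pass. Ryr1, a calcium channel of muscle, rose by 0.68 ± 0.12 in the skeletal muscle list (1 of 22), but its other probe set gave -0.54 ± 0.17.

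**Figure D4:**
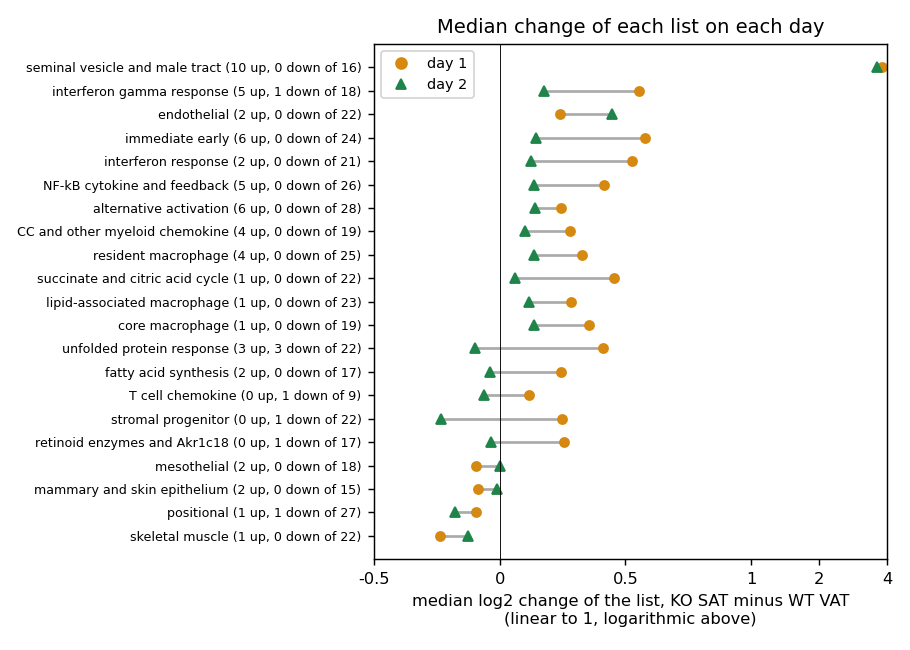
Median log2 change, KO SAT minus WT VAT, of 21 gene lists on day 1 (circles) and day 2 (triangles), with the members that passed in each direction beside each name. The seminal vesicle list stands at 3.78 and 3.59, and the immune and stress lists lie nearer 0 on day 2 than on day 1.

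The largest falls included many multicopy genes and varied widely. Ssty2, a spermatid gene with many Y-linked copies, had 4.20, 7.55, 5.46 and 5.04 on KO SAT pools 1 to 4 and 9.81, 9.59, 6.89 and 7.40 on WT VAT pools 1 to 4. The groups overlapped, the change was -2.86 ± 0.71, and 5 of 8 fits with 1 array left out lost it. Astx6, Vmn1r148 and Ssty1 changed by -2.57, -2.18 and -2.06, Sprr2a1, a protein of cornified epithelium, by -2.03, and Orly by -1.69. Ugt3a1, Vmn2r42, Tma16, Elovl7, Duxbl1, Csprs and Rex2 changed by -1.41, -1.39, -1.26, -1.10, -1.06, -1.04 and -0.88. Rex2 lay below background in both groups, with means of 3.55 in KO SAT and 4.43 in WT VAT. Elovl7 (4.33) and Duxbl1 (4.17) lay below background in KO SAT. The rest of the 15 largest falls, Adh7 and Chac1, are given with their groups. Of the 13 genes named here, Elovl7, a fatty acid elongase, passed with the spread term and none without WT VAT pools 1 and 2. Near-identical copies of a multicopy gene share probes, so the values of such genes are uncertain. The 4 genes measured from the Ssty, Astx and Orly families are the 4 named above as large falls, so that count follows from the naming. Of 37 vomeronasal receptor genes 2 fell, Vmn1r148 and Vmn2r42 named above, and 0 rose, against 2.18% lower of all genes. In KO VAT minus WT SAT the same 4 genes and 10 of the 37 were lower, against 21% of all genes.

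The labelled depots differed for 486 genes in WT (2.84%) and 738 in KO (4.32%). Akr1c18, Emx2, Ccl8, Cxcl10, Ccl5 and Adh7 were chosen because earlier work on these data gave them opposite depot differences in the genotypes. Several of them were close here. That choice favours similar levels in KO SAT and WT VAT, so similar levels of these genes are not a separate result. Svs4 was chosen along with them, but its VAT minus SAT difference had the same sign in both genotypes. It was -0.97 in WT (adjusted p = 0.424, limma) and -7.68 in KO. Akr1c18, which inactivates progesterone, had 5.47, 5.26, 5.30 and 4.99 on KO SAT pools 1 to 4 and 4.96, 4.75, 4.79 and 5.14 on WT VAT pools 1 to 4. The groups overlapped, the difference was 0.35 ± 0.15 (95% interval 0.03 to 0.66; adjusted p = 0.12), and KO VAT averaged 10.18 and WT SAT 8.70. WT VAT minus WT SAT was -3.79 and KO VAT minus KO SAT 4.93; both share arrays with this comparison. Emx2, a homeobox gene of the urogenital tract, had 5.36, 5.36, 5.19 and 5.04 against 5.45, 5.45, 5.59 and 5.29, a difference of -0.21 ± 0.12 (interval -0.46 to 0.05). KO VAT averaged 8.50 and WT SAT 6.78.

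Ccl8, a monocyte chemokine, had 6.02, 6.76, 7.04 and 7.17 on KO SAT pools 1 to 4 and 6.21, 6.48, 6.46 and 7.49 on WT VAT pools 1 to 4. The difference was 0.09 ± 0.20 (interval -0.33 to 0.51), and its sign turned under quantile normalization and with the spread term; KO VAT averaged 8.87 and WT SAT 9.60. Cxcl10, an interferon-induced chemokine for T cells, had 9.98, 9.84, 10.31 and 10.25 against 9.22, 9.32, 10.36 and 10.34. It differed by 0.28 ± 0.14 (adjusted p = 0.16), with 0.64 on day 1 and -0.07 on day 2, its sign turned with the spread term, and it averaged 8.76 in KO VAT and 8.04 in WT SAT. Ccl5, another T cell chemokine, had 8.60, 8.79, 9.26 and 8.96 against 7.65, 8.02, 8.74 and 9.09, a difference of 0.53 ± 0.17 (adjusted p = 0.068).

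Adh7, a retinol-oxidising alcohol dehydrogenase, had 6.26, 6.32, 5.86 and 6.0 on KO SAT pools 1 to 4 and 7.24, 6.94, 7.60 and 7.28 on WT VAT pools 1 to 4. All KO SAT arrays were lower, and Adh7 fell by 1.16 ± 0.15 (adjusted p = 0.0016), 0.80 on day 1 and 1.51 on day 2; its other probe set differed by 0.01 ± 0.21 with both groups below background. KO VAT averaged 9.97 and WT SAT 9.76. Positional genes, which record where in the body a cell formed, gave 1 rise and 1 fall of 27, near the 6.89% of all genes: Hoxc8 rose by 0.57 ± 0.11 and Hoxa9 fell by 0.49 ± 0.10. Neither passed with the spread term or without WT VAT pools 1 and 2.

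**Figure D5:**
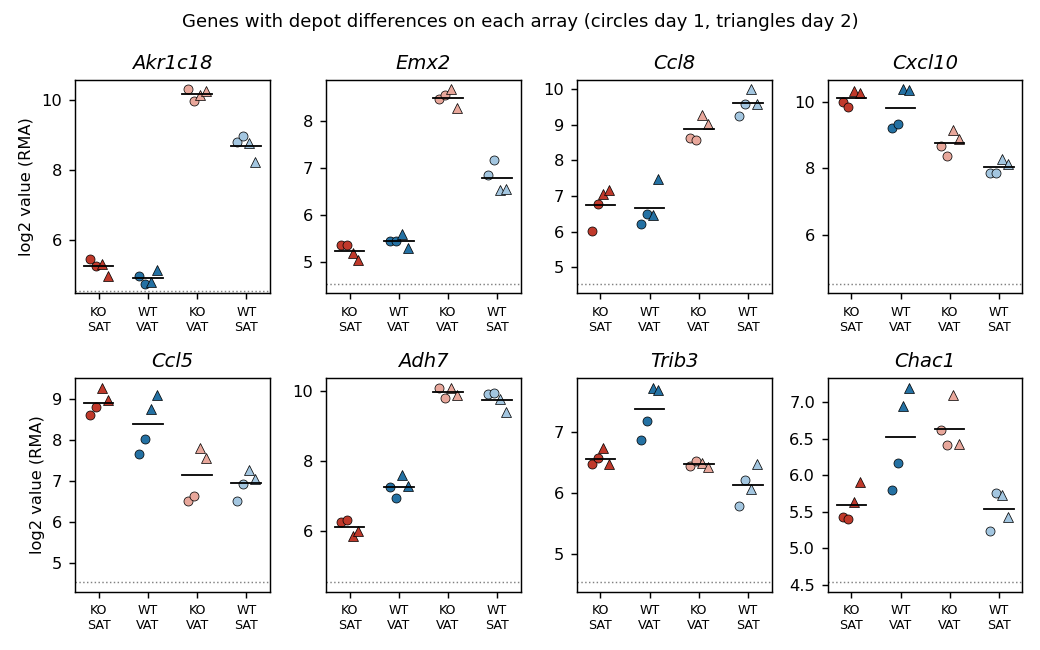
Log2 values of 8 genes on each array in 4 groups; bars are group means, circles day 1, triangles day 2, and the dotted line the background level of 4.54. KO SAT and WT VAT share similar levels of Akr1c18, Emx2 and Ccl8, far from KO VAT and WT SAT. Adh7, Trib3 and Chac1 are lower in KO SAT. Akr1c18, Emx2, Ccl8, Cxcl10, Ccl5 and Adh7 were chosen for opposite depot differences in the genotypes.

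The other crossed comparison, KO VAT minus WT SAT, uses the 8 remaining arrays and called 6717 genes (39.3%). Of the 1178 genes called here 783 were called there too, 66.5% of this list and 11.7% of that one: 472 higher in both, 251 lower in both, 51 higher here and lower there, and 9 the reverse. The 2 differences differed for 503 genes (2.94%), 310 higher (1.81%) and 193 lower (1.13%) in the one described here; this test equals SAT minus VAT summed over both genotypes. Of the genes called here 126 were also called in that difference, 109 higher and 17 lower. All 10 seminal vesicle genes were among them: Svs4 differed by -1.01 in the other comparison (adjusted p = 0.129). Retnla was -0.51 there (difference 1.28, adjusted p = 0.00328), Clec7a -0.14 (1.49, adjusted p = 0.0123) and Ccl3 -0.30 (1.21, adjusted p = 0.00918). Chac1 rose by 1.10 there, for a difference of -2.03 (adjusted p = 0.00211), and Trib3 was 0.34 there, for a difference of -1.14 (adjusted p = 0.00852). Jun, Il6 and Nfkbiz were higher in both crossed comparisons, with 0.48, 1.51 and 1.88 there, and the test of the difference did not pass for any of them.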

How the data were processed

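The authors deposited log2 values of 45141 probe sets; the submitters' processing notes name RMA and affy without versions. RMA gives all arrays the same distribution of probe intensities before probes are summarised. Per the labels, RNA of 300000 cells went through 24 cycles of cDNA amplification, after selection with CD11b beads; another label names F4/80-positive cells. Each of 17097 genes was represented by the probe set of highest mean over the 16 arrays; 15588 probe sets without a gene were left out. Names came from the platform annotation. No dim filter was applied. The model (limma 3.58.1, R 4.3.3; lmFit and eBayes) covered all 16 arrays with group and day as terms. A gene passed where its two-sided p, adjusted over all genes by Benjamini-Hochberg, was under 0.05. Errors are standard errors of the fit. The script was tested on simulated data. Background is the 95th percentile of 39 olfactory receptor genes; "at least" folds set the KO SAT mean against it. Array number, not depth, limits the precision. The comparison, the 52 gene lists and the members were chosen with earlier results of these data known. Genes named come from the 15 largest rises and 15 largest falls of the same sign on day 1 and day 2. Unnamed gene models were left out. Also named are the members with the smallest p of each list discussed (up to 6), Sucnr1, Lyz2 and 7 depot genes. Those 7 genes were taken from earlier work on these data for opposite depot differences in the genotypes, which Svs4 did not have here. Exceptions are stated. Alternatives covered the day term, days alone, pool block, arrays used, probe set choice, dim filter, centring, quantile normalization, array weights, intensity trend, array spread and each array left out. The fits without WT VAT pools 1 and 2, per day from 1 fit and without the seminal vesicle list were added after seeing the data.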

Additional observations from a re-analysis of the deposited data

Results flagged for a closer look

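Svs4 on WT VAT pool 1 was 3.88 while the other pools of the group lay between 3.76 and 3.78, a gap beyond Dixon's limit for 4 arrays; all of them are below background. H1f2, a linker histone gene that rose by 1.58 ± 0.21, was 8.75 on WT VAT pool 4 against 7.07 to 7.34 on pools 1 to 3, also beyond that limit. These are 2 of 56 groups tested, and chance gives such a gap in about 1 in 20. Krtap19-2, a hair keratin-associated gene, had 6.04 and 5.81 on WT VAT pools 1 and 2 and 3.57 and 3.64 on pools 3 and 4, so that its change differed between the days by 2.07 ± 0.23 (adjusted p = 0.0138, limma). The crossed differences, KO SAT minus WT VAT and KO VAT minus WT SAT, differed for 503 genes.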

How the results depend on the processing

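Calls for KO SAT minus WT VAT numbered 1178, and 51 with no day term, 4017 on day 1 alone, 18 on day 2 alone, 205 with only the arrays compared, 616 with array weights, 656 with the spread term (24.8% of them higher, against 68.4%), 139 without WT VAT pools 1 and 2, 5406 and 36 for days 1 and 2 from 1 fit, and 177 to 3388 with 1 array left out. The pool number as a replicate block gave 645. Same-numbered arrays correlated at 0.35 to 0.63 in their deviations from group means but at -0.46 to 0.25 after day. Whether same-numbered pools share animals is not stated, and correlations over so few arrays cannot settle it. Centring made 80.7% of calls higher and quantile normalization 55.6%; centring moved the median of all genes from -0.03 to 0.03 and the dim filter to 0.11. Calls for KO VAT minus WT SAT (6717) were 4426 with no day term, 1702 on day 1 alone and 1859 with the spread term. The difference of both (503) gave 169 with no day term, 167 and 984 on days 1 and 2 alone, 306 centred, 1139 with quantile normalization, 1160 with weights, 1701 with the spread term and 263 to 1297 with 1 array left out. The day difference (1 gene) gave 0 with only the arrays compared, the dim filter, weights or spread, 7 and 8 with the mean or most variable probe set, 2 centred or with quantile normalization, 21 with the trend, and 0 to 2262 with 1 array left out; the highest lacked WT VAT pool 2. Signs turned for Col1a1 on day 1 (0.076, alone or from 1 fit); on day 2, alone or from 1 fit, for Cxcl10 (-0.069), Cxcl16 (-0.061) and Lyz2 (0.14); with the mean probe set for Gpam (-0.022); with the most variable probe set for Adh7 (0.0070), Cxcl11 (-0.056), Ryr1 (-0.54) and Tpm2 (-0.070); with quantile normalization for Cxcl16 (-0.068), Tpm2 (-0.71) and Ccl8 (-0.054); with the spread term for Csf1r (-0.041), Cxcl10 (-0.047), Cxcl16 (-0.054), Mb (0.073), Lyz2 (0.0081) and Ccl8 (-0.10); without WT VAT pools 1 and 2 for Cxcl10 (-0.055), Cxcl16 (-0.016) and Lyz2 (0.15); and with 1 array left out for Lyz2 (-0.21 to 0.022), Ccl8 (-0.086 to 0.29) and Sucnr1 (-0.010 to 0.051). Of these, Adh7 and Ryr1 had passed. Of 78 named genes that passed, 25 also passed with the spread term and 23 without WT VAT pools 1 and 2. The causes were not tested.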

Other observations

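Genes that passed on day 2 included several of no list. Array spread differed less between the groups on day 2 than on day 1, by 0.10 against 0.33, but was still larger in KO SAT. Ccdc28b rose by 0.91 ± 0.11 (0.93 on day 1 and 0.89 on day 2), and Pank3, which starts coenzyme A synthesis, rose by 0.72 ± 0.08 (0.72 on both days). Cemip2, a cell surface hyaluronidase, had 6.32, 6.25, 6.41 and 6.56 on KO SAT pools 1 to 4 and 5.48, 5.56, 5.56 and 5.78 on WT VAT pools 1 to 4, with no overlap and a rise of 0.79 ± 0.08. Pank3 and Cemip2 were also higher in KO VAT minus WT SAT, by 0.91 and 0.75, while Ccdc28b differed there by 0.07 (adjusted p = 0.606, limma). These genes were chosen after their values were seen.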
